A study of Mus musculus with 12 samples.

Results

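Transcripts of the adaptors and kinases that carry signals from Toll-like receptors were followed in RAW 264.7 cells, an established mouse macrophage line transformed with Abelson leukaemia virus. The set was fixed by name as Myd88, Ticam1, Ticam2, Tirap, Irak1, Irak2, Irak3, Irak4, Traf6 and Map3k8, and all 10 were found among the 55137 genes of the read-count table. All 10 also passed the filter on low counts that left 14505 genes for testing. The set was chosen with earlier results of these data known. There were 4 groups of 3 libraries. The PSTO+LPS group received PSTO at 20 uM for 30 min and then LPS at 500 ng/mL. The LPS group received vehicle and then LPS, the PSTO group received PSTO without LPS, and the control group received vehicle without LPS. Harvest followed after 6 h. PSTO is not spelled out in the labels, and the series title speaks of a garlic extract. The replicates are called triplicates without a statement that they were separate cultures, so p-values measure the spread between these libraries, which may be technical.

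LPS is a bacterial surface component sensed by the receptor encoded by Tlr4. On binding it, the receptor recruits pairs of adaptor proteins through their shared TIR domain. Tirap, at the plasma membrane, brings in Myd88, which assembles the kinases Irak4, Irak1 and Irak2, and these engage the ubiquitin ligase Traf6. Ticam2 brings in Ticam1, the adaptor of the endosomal branch that leads to type I interferon. Irak3, a family member without effective kinase activity, restrains this signalling in macrophages and is known from endotoxin tolerance. Map3k8 is the kinase that connects IkB kinase activity to the ERK pathway.

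Library totals ran from 15817880 to 28625784 reads, and the lowest Spearman correlation between libraries of a group, across genes, was 0.988. The library PSTO+LPS 1 lay apart from the others of its group on the fourth principal component (2.67% of the variance). On the second (10.6%), where groups with PSTO lay below those without, it stood at -47.9, against -34.8 and -32.5. Every member called in a comparison with that group was also called without this library. The 10 macrophage markers summed to between 7979 and 11141 counts per 1000000 reads (CPM) in every library. Lyz2 was the highest, with group means of 4272 to 6273 CPM, and Mertk the lowest, with 0.60 to 1.85 CPM. In LPS against control 4 of the 10 were called higher and 4 lower, where 62.9% of all tested genes were called. Markers of T cells, fibroblasts and epithelium summed to at most 0.596 CPM, and Cd3g, Cd8a, Epcam, Krt18, Col1a2 and Pdgfra had no read. Of 4 neutrophil markers, S100a8 was the only one tested and rose in PSTO+LPS to 9.26 CPM, against 2.78 CPM in LPS. Its mean was 1.45 CPM in PSTO and 1.54 CPM in control. The part of this marker in the results below was not tested.

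The promoters of Myd88, Irak2 and Irak3 are shown because these genes rose with LPS while PSTO pretreatment was followed by lower Irak2 and Myd88 and by higher Irak3. Tirap also rose with LPS and was higher with PSTO pretreatment, by smaller log2 fold changes (0.19 and 0.28), and is not shown. Each window runs from 250 bases before to 50 bases after an annotated start in RefSeq (build GRCm38.p6), and is written in the direction of transcription. Capitals mark a match to the interferon-stimulated response element core or to the antioxidant response element core (TGACNNNGC). RefSeq windows were found for 8 of the 10 members, and those of Ticam2 and Map3k8 are not used here. The windows lie at chr9:119339969-119340268 on the minus strand for Myd88, at chr6:113638217-113638516 on the plus strand for Irak2, and at chr10:120201548-120201847 and chr10:120202081-120202380, both on the minus strand, for Irak3.
Myd88: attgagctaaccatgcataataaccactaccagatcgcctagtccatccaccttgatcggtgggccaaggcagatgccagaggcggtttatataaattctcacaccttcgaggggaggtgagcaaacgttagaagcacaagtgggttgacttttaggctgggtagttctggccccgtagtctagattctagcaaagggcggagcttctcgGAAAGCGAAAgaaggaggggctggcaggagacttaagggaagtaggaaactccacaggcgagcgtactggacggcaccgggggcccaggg
Irak2: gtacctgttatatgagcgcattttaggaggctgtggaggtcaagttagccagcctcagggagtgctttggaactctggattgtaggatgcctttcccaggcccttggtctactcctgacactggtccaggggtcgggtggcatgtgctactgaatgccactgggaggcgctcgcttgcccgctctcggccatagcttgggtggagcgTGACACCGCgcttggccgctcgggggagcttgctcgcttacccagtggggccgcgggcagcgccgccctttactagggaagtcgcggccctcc
Irak3, first window: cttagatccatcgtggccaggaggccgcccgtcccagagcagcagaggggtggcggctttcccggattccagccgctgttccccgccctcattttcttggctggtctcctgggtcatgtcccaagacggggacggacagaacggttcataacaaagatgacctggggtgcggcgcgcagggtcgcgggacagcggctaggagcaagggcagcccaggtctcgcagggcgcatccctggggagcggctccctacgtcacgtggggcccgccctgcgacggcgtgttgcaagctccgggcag
Irak3, second window: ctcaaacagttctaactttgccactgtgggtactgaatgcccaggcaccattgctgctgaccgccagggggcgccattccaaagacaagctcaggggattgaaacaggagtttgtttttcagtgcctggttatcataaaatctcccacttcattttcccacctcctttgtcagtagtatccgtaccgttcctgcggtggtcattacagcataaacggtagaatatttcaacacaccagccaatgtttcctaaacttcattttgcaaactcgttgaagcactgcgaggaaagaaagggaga
The Myd88 window held the interferon-stimulated response element core from 40 to 31 bases before the start, a match found in 3.44% of the 32851 windows in the table. The Irak2 window held TGACNNNGC from 43 to 35 bases before the start, a match found in 12.4% of all windows. Both Irak3 windows held no match to either, to the AP-1 site (TGANTCA, in 7.81% of windows), to the cyclic AMP response element (TGACGTCA, in 1.79%) or to the kappaB consensus (in 8.46%). Among the 8 members with windows the kappaB consensus was matched only in the 2 overlapping windows of Irak1, and Irak4 held 1 further match to TGACNNNGC. Both strands were searched, and no window held matches to more than 1 of the motifs. A match is a run of letters and no evidence of binding.

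LPS moved members of the set in both directions in cells without PSTO. Of the 10 members 7 rose and 3 fell in LPS against control (edgeR quasi-likelihood adjusted p under 0.05), where 62.9% of all tested genes were called, 32.8% higher and 30.1% lower. The median log2 fold change of the members was 1.11, against 0.01 over all tested genes. All 10 members had libraries that did not overlap between LPS and control, as did 67.4% of all tested genes. The factors used to scale the libraries ran from 1.17 to 1.21 without LPS and from 0.83 to 0.85 with it. Small LPS effects therefore depend on the choice of factors. Scaled instead by upper-quartile factors, all genes had a median of -0.14 and 41.8% of the calls were upward, against 52.1% with the factors used throughout. The count of members called was then 9, the call of Tirap being lost, as with some other settings named with that gene. Over all genes, calls numbered 8601 to 9241 in the alternative settings, against 9121. In bulk RNA, less RNA per cell and fewer cells with the transcript cannot be told apart.

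With PSTO given first, LPS called 9 of the 10 members, 6 higher and 3 lower (PSTO+LPS against PSTO), where 59.7% of tested genes were called, 29.8% higher and 29.9% lower. The median log2 fold change of the members was 0.53, against -0.02 over all tested genes. In stimulated cells, 3 members were higher and 3 lower in PSTO+LPS than in LPS, where 38.3% of tested genes were called, 16.6% higher and 21.7% lower. In unstimulated cells, 4 members were higher and 1 was lower in PSTO than in control, where 30.6% of tested genes were called, 14.8% higher and 15.8% lower. These 5 calls were 3 with limma-voom, with only the 2 groups in the fit, or without control 3, those of Irak3 and Map3k8 being lost. Over all genes, calls numbered 3725 to 4916 in the alternative settings, against 4440. The LPS effect with PSTO differed from the LPS effect without PSTO (the interaction) for 5 members, 1 upward and 4 downward, where 17.1% of tested genes were called, 6.96% upward and 10.1% downward. Libraries did not overlap for 9 members in PSTO+LPS against PSTO (64.9% of all tested genes), for 7 in PSTO+LPS against LPS (47.4%) and for 6 in PSTO against control (44.3%). The comparisons share groups, so their member lists are not independent of each other.

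**Figure D1:**
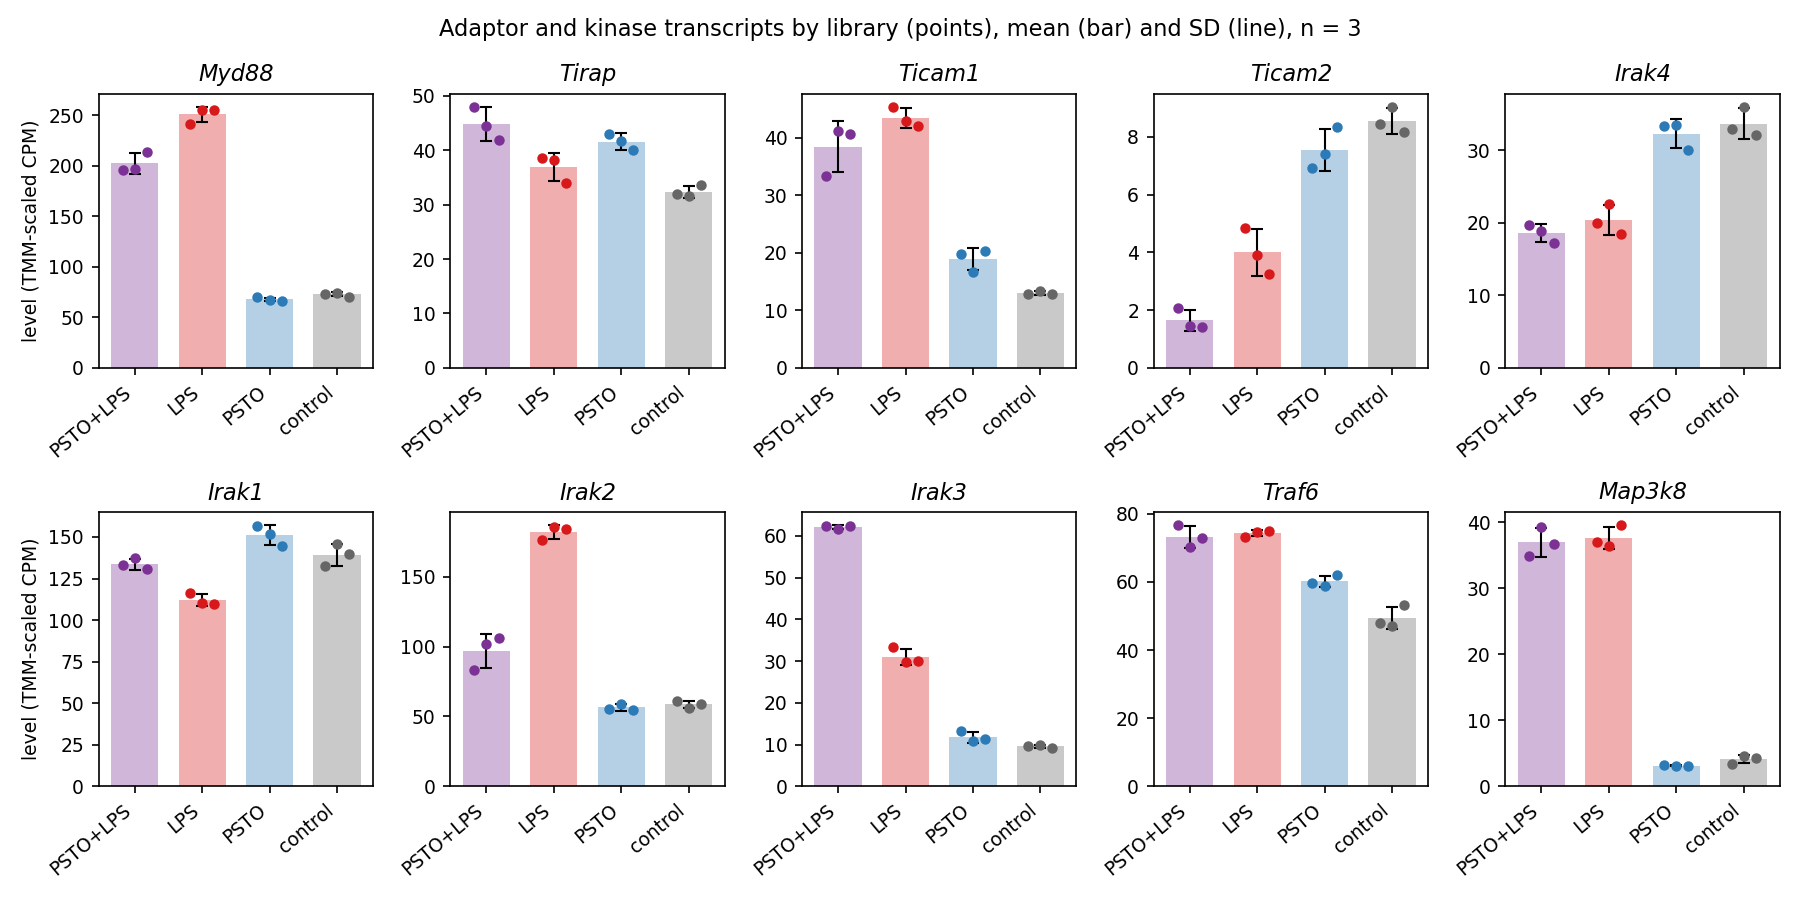
Level of each member in CPM scaled by the trimmed mean of M-values (TMM), by group, with points for the 3 libraries, bars for the mean and lines for the SD. Irak2 stands at 83.2 to 106 CPM in PSTO+LPS and at 176 to 185 CPM in LPS, and Irak3 at 61.6 to 62.5 CPM in PSTO+LPS and 29.8 to 33.3 CPM in LPS.

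Irak2 encodes the kinase that, beside Irak1, passes the signal from the Myd88 complex to Traf6 and sustains it. Its level was 83.2, 102 and 106 CPM in the PSTO+LPS libraries, 176, 185 and 184 CPM in LPS, 55.5, 59.1 and 55.0 CPM in PSTO, and 61.0, 55.9 and 59.1 CPM in control. The groups with and without LPS did not overlap, nor did PSTO+LPS and LPS, while PSTO and control did. LPS raised Irak2 by 0.78 on the log2 scale in cells given PSTO (SE 0.07, edgeR adjusted p = 2.92e-08), a 1.72-fold rise. Without PSTO the log2 fold change was 1.63 (SE 0.07, edgeR adjusted p = 2.68e-13), a 3.10-fold rise. The difference between the 2 LPS effects was -0.85 (SE 0.10, edgeR adjusted p = 9.4e-06; -0.76 without PSTO+LPS 1). In stimulated cells PSTO+LPS stood 0.91 below LPS on the log2 scale (-0.91, SE 0.07, edgeR adjusted p = 1.09e-08), and in unstimulated cells the log2 fold change of PSTO against control was -0.05 (SE 0.07, edgeR adjusted p = 0.639). PSTO+LPS 1 was the lowest library of its group, and without it the log2 fold change against LPS was -0.81 (edgeR adjusted p = 1.37e-09).

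Irak3 moved the other way under PSTO. Its level was 62.4, 61.6 and 62.5 CPM in PSTO+LPS, 33.3, 29.8 and 30.0 CPM in LPS, 13.3, 10.8 and 11.2 CPM in PSTO, and 9.56, 10.01 and 9.09 CPM in control. The 4 groups did not overlap, and the PSTO+LPS libraries lay within 1 CPM of each other. LPS raised Irak3 by a log2 fold change of 2.40 in cells given PSTO (SE 0.09, edgeR adjusted p = 3.1e-14), a 5.28-fold rise. Without PSTO it rose by 1.70 (SE 0.09, edgeR adjusted p = 6.43e-12), a 3.25-fold rise. The difference of the LPS effects was 0.70 (SE 0.13, edgeR adjusted p = 0.000796; 0.69 without PSTO+LPS 1). In stimulated cells Irak3 was 2.001-fold higher in PSTO+LPS than in LPS (log2 fold change 1.001, SE 0.09, edgeR adjusted p = 3.48e-08), and without PSTO+LPS 1 that log2 fold change was 0.99. In unstimulated cells it was higher in PSTO than in control (log2 fold change 0.30, SE 0.10, edgeR adjusted p = 0.0228), a call lost without PSTO 1 (adjusted p = 0.195), control 1 (0.0766) or control 3 (0.114), with limma-voom (0.0593), and with only the 2 groups in the fit (0.0728).

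Irak1, the kinase that is recruited early to the Myd88 complex and then degraded, fell modestly at the transcript level with LPS. Its level was 133, 137 and 131 CPM in PSTO+LPS, 116, 110 and 109 CPM in LPS, 157, 152 and 145 CPM in PSTO, and 133, 145 and 140 CPM in control. LPS was lowest, and it overlapped with no other group. The log2 fold change with LPS was -0.18 in cells given PSTO (SE 0.05, edgeR adjusted p = 0.00727) and -0.31 without PSTO (SE 0.05, edgeR adjusted p = 3.9e-05). The first of these calls was lost without PSTO 1 (edgeR adjusted p = 0.0925) or PSTO 2 (0.0534). Irak1 was higher in PSTO+LPS than in LPS (log2 fold change 0.25, SE 0.05, edgeR adjusted p = 0.00092; also 0.25 without PSTO+LPS 1), and the log2 fold change of PSTO against control was 0.12 (edgeR adjusted p = 0.0986). The 2 LPS effects differed by 0.14 (SE 0.08, edgeR adjusted p = 0.253), which was not called.

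Irak4, the kinase that joins Myd88 first and activates Irak1 and Irak2, fell with LPS both with and without PSTO. It had 19.7, 18.9 and 17.2 CPM in PSTO+LPS, 20.0, 22.6 and 18.5 CPM in LPS, 33.4, 33.4 and 30.0 CPM in PSTO, and 33.0, 36.0 and 32.0 CPM in control. Libraries with LPS lay below all libraries without it, and PSTO made no separation within either pair. The log2 fold change with LPS was -0.80 in cells given PSTO (SE 0.10, edgeR adjusted p = 8.34e-07) and -0.72 without PSTO (SE 0.09, edgeR adjusted p = 1.75e-06). The difference between them was -0.07 (SE 0.14, edgeR adjusted p = 0.792), and PSTO+LPS against LPS gave -0.13 (SE 0.10, edgeR adjusted p = 0.324).

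The make-up of the IRAK family shifted with LPS, differently with and without PSTO, and changed little with PSTO alone. To set the transcripts beside each other, levels were divided by the length of merged exons in GENCODE M21, an annotation of another build than the deposited counts, so that shares between genes are approximate. On this scale (CPM per kilobase) Irak3 made up 23.9 ± 1.0% of the family's summed level in PSTO+LPS, 10.9 ± 0.68% in LPS, 5.88 ± 0.55% in PSTO and 4.99 ± 0.19% in control (SD, n = 3 each). Irak2 made up 30.9 ± 2.9%, 53.3 ± 1.5%, 23.5 ± 0.98% and 25.5 ± 1.7% in the same order of groups. Irak1 held the greatest share in PSTO+LPS (39.96 ± 1.6%), PSTO (58.8 ± 0.50%) and control (56.6 ± 1.4%), whereas in LPS it was second to Irak2 with 30.6 ± 0.95%. The summed level was 70.9 ± 2.6 CPM per kilobase in PSTO+LPS, 77.5 ± 0.59 in LPS, 54.5 ± 2.0 in PSTO and 52.1 ± 1.2 in control. The ratio of Irak3 to Irak2 reads within a library, which needs no scaling between libraries, was 0.75, 0.606 and 0.587 in PSTO+LPS, against 0.189, 0.161 and 0.163 in LPS. It was 0.239, 0.183 and 0.205 in PSTO, against 0.157, 0.179 and 0.154 in control. The PSTO+LPS ratios lay above all others, and those of the other 3 groups lay close together.

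**Figure D2:**
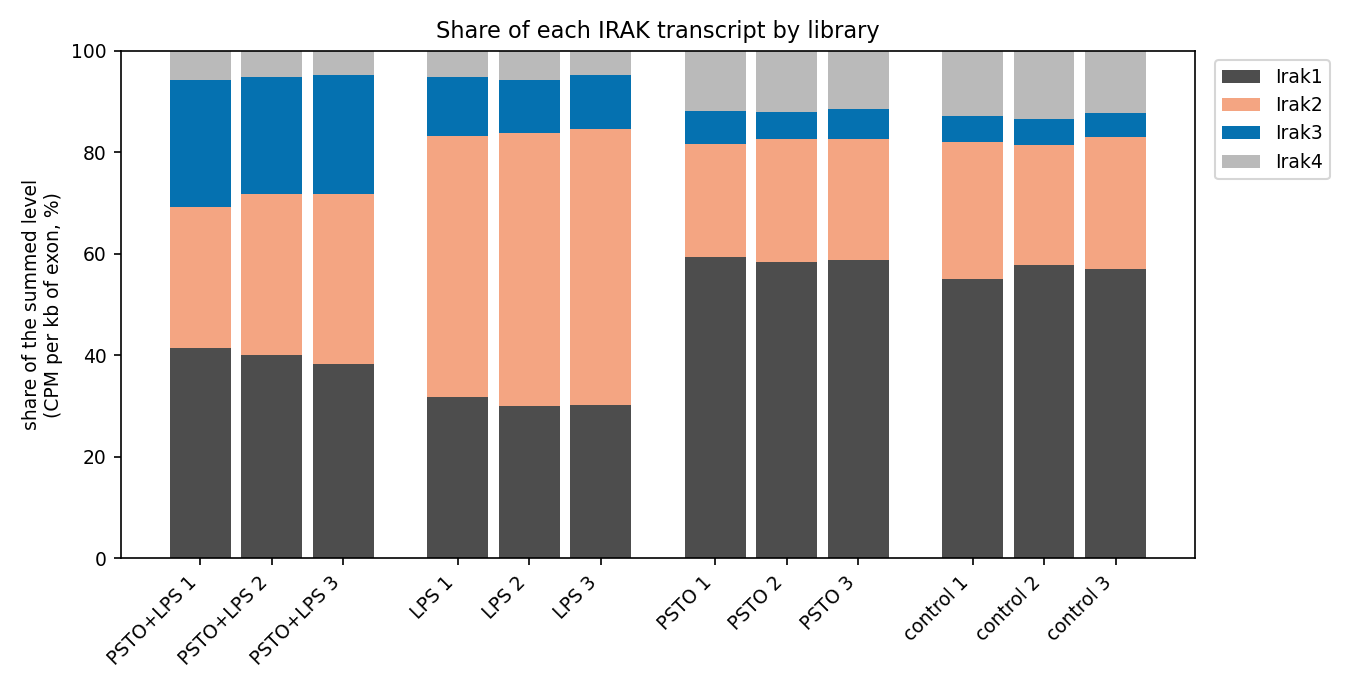
Share of each IRAK transcript in the summed family level (CPM per kilobase of merged exon, in percent), 1 bar per library. Irak2 takes 30.9% on average in PSTO+LPS and 53.3% in LPS, while Irak3 takes 23.9% in PSTO+LPS and 10.9% in LPS.

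Among the adaptors, Myd88, used by nearly all Toll-like receptors and by the interleukin-1 receptor, rose with LPS. Its level was 196, 197 and 214 CPM in PSTO+LPS, 242, 255 and 256 CPM in LPS, 69.8, 67.3 and 66.4 CPM in PSTO, and 73.5, 74.6 and 70.5 CPM in control. PSTO libraries lay below their counterparts without PSTO in both pairs, without overlap. LPS raised it by 1.58 on the log2 scale in cells given PSTO (SE 0.05, edgeR adjusted p = 3.87e-15) and by 1.78 without PSTO (SE 0.05, edgeR adjusted p = 4.21e-16). Myd88 was lower in PSTO+LPS than in LPS (log2 fold change -0.31, SE 0.05, edgeR adjusted p = 8.87e-05; -0.29 without PSTO+LPS 1), and the log2 fold change of PSTO against control was -0.10 (SE 0.05, edgeR adjusted p = 0.163). The difference of the LPS effects was -0.21 (SE 0.07, edgeR adjusted p = 0.063), which was called only without PSTO+LPS 3 (adjusted p = 0.0268).

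Tirap, the adaptor that brings Myd88 to Tlr4, was higher in the groups given PSTO. It had 48.0, 44.5 and 41.9 CPM in PSTO+LPS, 38.6, 38.3 and 34.0 CPM in LPS, 43.1, 41.7 and 39.99 CPM in PSTO, and 31.9, 31.6 and 33.6 CPM in control. The libraries with PSTO lay above those without it in each pair. Tirap was higher in PSTO+LPS than in LPS (log2 fold change 0.28, SE 0.08, edgeR adjusted p = 0.00747; adjusted p = 0.0519 without LPS 3 and 0.0468 without PSTO+LPS 1) and higher in PSTO than in control (0.36, SE 0.07, edgeR adjusted p = 0.000938). With LPS the log2 fold change was 0.11 in cells given PSTO (SE 0.08, edgeR adjusted p = 0.226) and 0.19 without PSTO (SE 0.08, edgeR adjusted p = 0.0328). The second call was lost without control 1 (adjusted p = 0.152), control 2 (0.167), control 3 (0.0648), LPS 1 (0.121) or LPS 2 (0.103). It was also lost under upper-quartile scaling (log2 fold change 0.04, adjusted p = 0.658), with no count filter (0.103) and with only the 2 groups in the fit (0.0529).

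Ticam1, the TRIF adaptor of Tlr3 and of the endosomal branch of Tlr4, rose with LPS. Its level was 33.3, 41.2 and 40.6 CPM in PSTO+LPS, 45.4, 42.9 and 42.0 CPM in LPS, 19.8, 16.6 and 20.2 CPM in PSTO, and 12.8, 13.4 and 12.9 CPM in control. PSTO alone set it above control without overlap, and with LPS all PSTO-treated libraries lay below those without PSTO. The log2 fold change with LPS was 1.02 in cells given PSTO (SE 0.10, edgeR adjusted p = 3.6e-08) and 1.74 without PSTO (SE 0.10, edgeR adjusted p = 1.27e-11). Their difference was -0.72 (SE 0.14, edgeR adjusted p = 0.00116; -0.63 without PSTO+LPS 1). In unstimulated cells Ticam1 was 1.45-fold higher in PSTO than in control (log2 fold change 0.54, SE 0.10, edgeR adjusted p = 0.000416). In stimulated cells the log2 fold change of PSTO+LPS against LPS was -0.18 (SE 0.10, edgeR adjusted p = 0.152; -0.09 without PSTO+LPS 1).

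Ticam2, the TRAM adaptor that links Ticam1 to Tlr4, fell with LPS and stood lowest with both agents. It was counted with 36, 19 and 24 reads in PSTO+LPS, 116, 80 and 61 in LPS, 177, 197 and 235 in PSTO, and 271, 227 and 247 in control. Scaled, these were 2.07, 1.43 and 1.43 CPM in PSTO+LPS, 4.86, 3.92 and 3.25 CPM in LPS, 6.91, 7.41 and 8.33 CPM in PSTO, and 8.47, 9.05 and 8.17 CPM in control. The 2 groups with LPS overlapped neither with each other nor with the groups without it. With LPS Ticam2 fell by 2.18 on the log2 scale in cells given PSTO (SE 0.22, edgeR adjusted p = 4.67e-08) and fell by 1.09 without PSTO (SE 0.19, edgeR adjusted p = 5.36e-05). The difference was -1.10 (SE 0.29, edgeR adjusted p = 0.0116; -1.31 without PSTO+LPS 1). PSTO+LPS stood at a log2 fold change of -1.28 against LPS (SE 0.22, edgeR adjusted p = 0.000159; -1.49 without PSTO+LPS 1), and PSTO against control at -0.18 (SE 0.18, edgeR adjusted p = 0.504). In GENCODE M21, 14.5% of the exon bases of Ticam2 are shared with Tmed7 on the same strand, so its counts are uncertain. Tmed7 itself had 222 ± 8.7 CPM in PSTO+LPS, 221 ± 7.2 in LPS, 198 ± 4.8 in PSTO and 177 ± 9.5 in control (SD, n = 3 each). How reads of the shared bases were counted is not known, and their part in the fall of Ticam2 was not tested.

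Traf6, the ubiquitin ligase downstream of the IRAK kinases, was higher with either agent than without. It had 76.7, 70.2 and 72.9 CPM in PSTO+LPS, 73.3, 74.8 and 74.9 CPM in LPS, 59.7, 58.7 and 61.9 CPM in PSTO, and 48.0, 47.1 and 53.1 CPM in control. The 2 groups with LPS overlapped, and control lay below all others. The log2 fold change with LPS was 0.29 in cells given PSTO (SE 0.06, edgeR adjusted p = 0.000446) and 0.59 without PSTO (SE 0.06, edgeR adjusted p = 6.48e-08). PSTO against control gave 0.28 (SE 0.06, edgeR adjusted p = 0.00121), and PSTO+LPS against LPS gave -0.02 (SE 0.06, edgeR adjusted p = 0.835). The difference of the LPS effects was -0.30 (SE 0.09, edgeR adjusted p = 0.0182). That call was lost without control 1 (adjusted p = 0.146), control 2 (0.145), PSTO 1 (0.0953), PSTO 2 (0.0823) or PSTO 3 (0.147).

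Map3k8, known as TPL2, had the greatest fold rise of the 10 members. Its level was 34.8, 39.3 and 36.8 CPM in PSTO+LPS, 37.0, 36.4 and 39.6 CPM in LPS, 3.16, 3.05 and 3.12 CPM in PSTO, and 3.44, 4.59 and 4.33 CPM in control. The groups with LPS overlapped with each other and lay far above the groups without it. LPS raised it 11.9-fold in cells given PSTO (log2 fold change 3.57, SE 0.12, edgeR adjusted p = 3.45e-15) and 9.18-fold without PSTO (3.20, SE 0.11, edgeR adjusted p = 7.95e-15). The difference was 0.37 (SE 0.16, edgeR adjusted p = 0.143), which was called only without control 1 (0.0274). PSTO+LPS against LPS gave a log2 fold change of -0.03 (SE 0.10, edgeR adjusted p = 0.858). In unstimulated cells Map3k8 was lower in PSTO than in control (-0.40, SE 0.13, edgeR adjusted p = 0.0276). That call was lost without control 2 (adjusted p = 0.0884), control 3 (0.0792), PSTO 2 (0.0623) or PSTO 3 (0.0503), with limma-voom (0.169), with no count filter (0.0625), and with only the 2 groups in the fit (0.199).

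**Figure D3:**
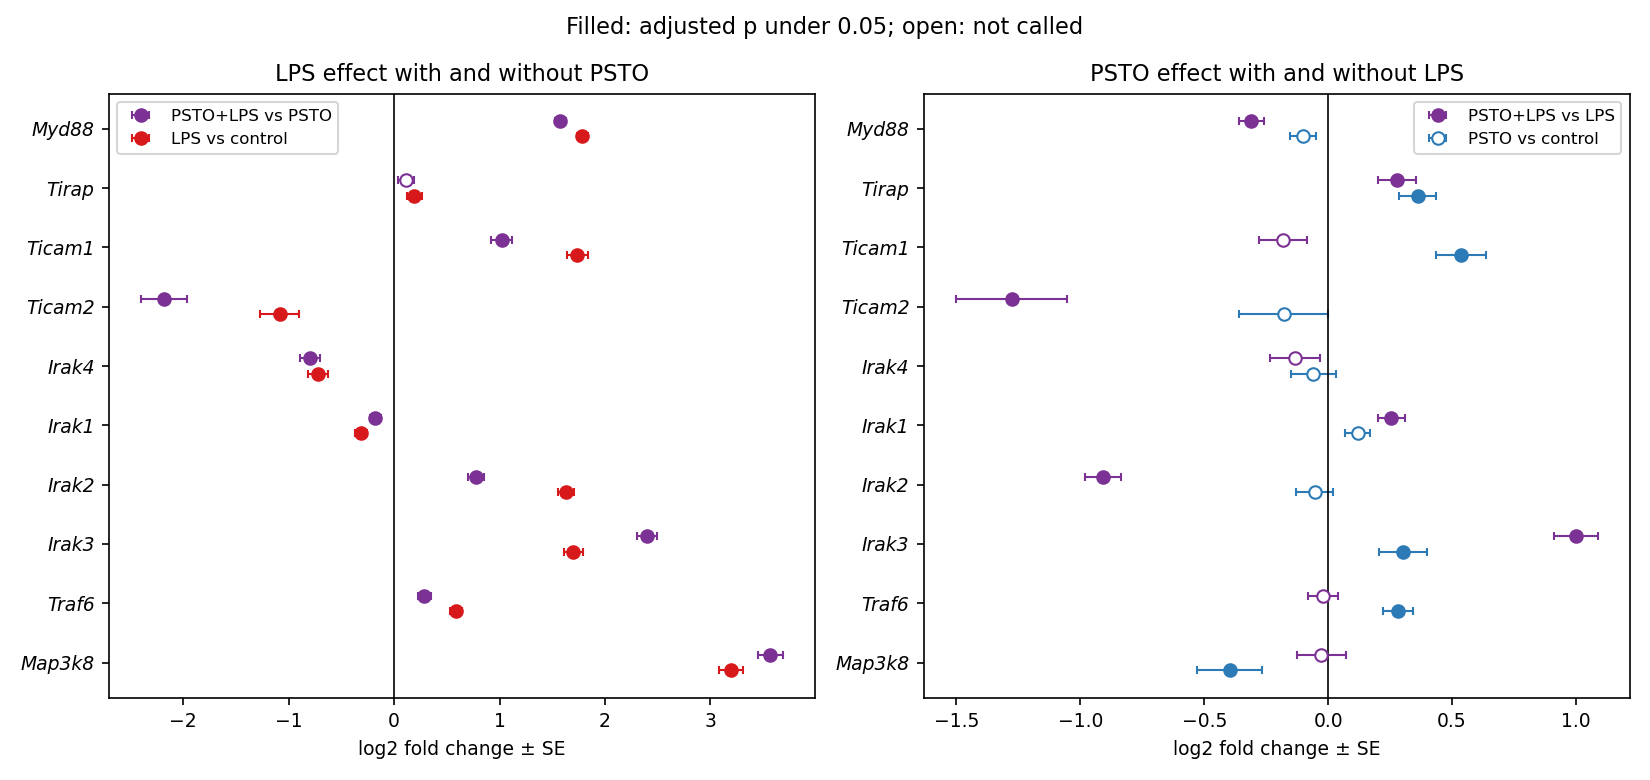
Log2 fold changes with SE of the 10 members, for the LPS effect (left) and the PSTO effect (right), each with and without the other agent. Filled points passed an edgeR adjusted p under 0.05. Irak3 lies at 1.001 and Irak2 at -0.91 for PSTO+LPS against LPS.

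Per kilobase of merged exon, the order of levels changed with LPS. In PSTO+LPS Myd88 was highest with 78.6 ± 3.9 CPM per kilobase, followed by Irak1 (28.3 ± 0.73), Irak2 (22.0 ± 2.8), Irak3 (16.9 ± 0.13) and Ticam1 (12.8 ± 1.5). In LPS the order was Myd88 (97.4 ± 3.0), Irak2 (41.3 ± 1.1), Irak1 (23.7 ± 0.77), Ticam1 (14.5 ± 0.59) and Traf6 (9.43 ± 0.11). In control it was Irak1 (29.5 ± 1.4), Myd88 (28.3 ± 0.83), Irak2 (13.3 ± 0.59), Irak4 (6.71 ± 0.42) and Tirap (6.56 ± 0.22), all SD with n = 3. Neighbours such as Irak1 and Myd88, or Irak4 and Tirap, in control lay within the spread of their libraries. Ticam2 was the lowest member in both groups with LPS and Map3k8 in both groups without it.

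The genes whose log2 CPM followed a member most closely over the 12 libraries, by Pearson's r, are a description of 4 group levels more than of 12 independent points. For Irak2 they were Ppp2r5a, a regulatory subunit of protein phosphatase 2A (r = 0.995), and Larp1, a repressor of ribosomal protein translation (r = 0.993). Ppp2r5a had mean levels of 187 CPM in PSTO+LPS, 423 in LPS, 107 in PSTO and 102 in control. For Irak3 they were Ezr, which encodes the membrane linker ezrin (r = 0.993), and the general transcription factor gene Gtf2b (r = 0.992). Ezr had mean levels of 263 CPM in PSTO+LPS, 138 in LPS, 45.5 in PSTO and 36.0 in control. For Myd88 they were H2-T23 and Aim2, for Map3k8 Isg15 and Oasl1, for Ticam1 Zcchc6 and Stk40, and for Ticam2 Dubr and Ccdc32. For Tirap they were Itch and Ppm1a, for Irak1 Foxo1 and Chp1, for Irak4 Cdk19 and Nin, and for Traf6 Msn and Tmed7.

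The genes around the adaptors were read as 5 lists. These were chosen with earlier results of these data known, so their shares beside those of all genes are a description. Of 14 receptors and co-receptors 13 were tested, and with LPS without PSTO 10 rose and 3 fell, where 62.9% of all tested genes were called. In PSTO+LPS against LPS 8 of the 13 were lower and 1 was higher, with a median log2 fold change of -0.27, against -0.03 over all tested genes, of which 21.7% were lower and 16.6% higher. Without PSTO+LPS 1 there were 9 lower and 1 higher, where 32.9% of all tested genes were called. Cd180, a receptor relative that modulates Tlr4, was lower by 1.81 on the log2 scale (log2 fold change -1.81), and Tlr1 stood at -1.06. Cd14, which hands LPS to Tlr4, was the one called higher, with 5208 ± 107 CPM in PSTO+LPS, against 2152 ± 45.5 CPM in LPS (log2 fold change 1.28). Without LPS, Cd14 was also higher in PSTO (3472 ± 170 CPM) than in control (1156 ± 50.2 CPM), by a log2 fold change of 1.59 (SD, n = 3 each). Tlr4 had 37.4 ± 4.1 CPM in PSTO+LPS, 43.9 ± 3.6 in LPS, 140 ± 9.3 in PSTO and 143 ± 4.1 in control.

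Downstream of Traf6, 12 of 14 genes of the TAK1 and IkB kinase step were tested. With LPS without PSTO 9 rose and 2 fell (62.9% of all tested genes called), and in PSTO+LPS against LPS 1 was higher and 3 were lower (38.3% of all tested genes called), a share near that of all genes. Peli1, a ubiquitin ligase that acts on the IRAK kinases, had 406 ± 20.8 CPM in PSTO+LPS, 604 ± 8.7 in LPS, 24.9 ± 0.16 in PSTO and 24.5 ± 2.8 in control. Its log2 fold change was -0.57 in PSTO+LPS against LPS (SE 0.06, edgeR adjusted p = 3.14e-07), and Ikbkg, the regulatory subunit NEMO, was the gene called higher (0.36). In the Ticam1 branch all 8 TBK1 genes were tested. With LPS without PSTO 6 of them rose and none fell, where 62.9% of all tested genes were called and 32.8% rose. In PSTO+LPS against LPS 6 of the 8 were lower and 1 was higher, with a median log2 fold change of -0.30, where 21.7% of all tested genes were lower. Without PSTO+LPS 1 the counts of both lists were the same, where 32.9% of all tested genes were called. Ikbke, the inducible kinase of that branch, had 335 ± 8.6 CPM in PSTO+LPS, 560 ± 1.7 in LPS, 15.2 ± 0.98 in PSTO and 24.1 ± 1.1 in control.

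Of 13 partners of Map3k8 and MAP kinases 12 were tested, with 8 higher and 3 lower in LPS against control (62.9% of all tested genes called). Nfkb1, whose p105 product holds Map3k8 inactive, rose with LPS by a log2 fold change of 3.68 in cells given PSTO and 3.54 without PSTO. Map2k1, a kinase activated by Map3k8, rose by 1.52 in cells given PSTO and by 2.08 without PSTO. In PSTO+LPS against LPS 5 were higher and 1 was lower (38.3% of all tested genes called; 4 and 1 without PSTO+LPS 1), with Map2k3 at a log2 fold change of 0.68 and Mapk14, the p38 alpha gene, at -0.53. All 13 genes listed as brakes of adaptor signalling were tested. In LPS against control 10 were higher and 2 lower (62.9% of all tested genes called). In PSTO+LPS against LPS 7 were lower and 3 higher, where 21.7% of all tested genes were lower and 16.6% higher. Without PSTO+LPS 1 there were 6 lower and 1 higher, where 32.9% of all tested genes were called. Ptpn6, the SHP-1 phosphatase gene, had 36.7 ± 2.4 CPM in PSTO+LPS, 127 ± 3.7 in LPS, 98.0 ± 4.3 in PSTO and 238 ± 12.4 in control. Tnfaip3, the A20 gene that edits ubiquitin on Traf6, had 272 ± 18.8 CPM in PSTO+LPS, 489 ± 0.38 in LPS, 6.75 ± 0.40 in PSTO and 11.9 ± 0.32 in control (all SD, n = 3 each). Sarm1 and Sigirr were also called in PSTO+LPS against LPS, at mean levels of at most 1.23 CPM in both groups, and lost their calls without PSTO+LPS 1 (edgeR adjusted p = 0.0653 and 0.122).

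**Figure D4:**
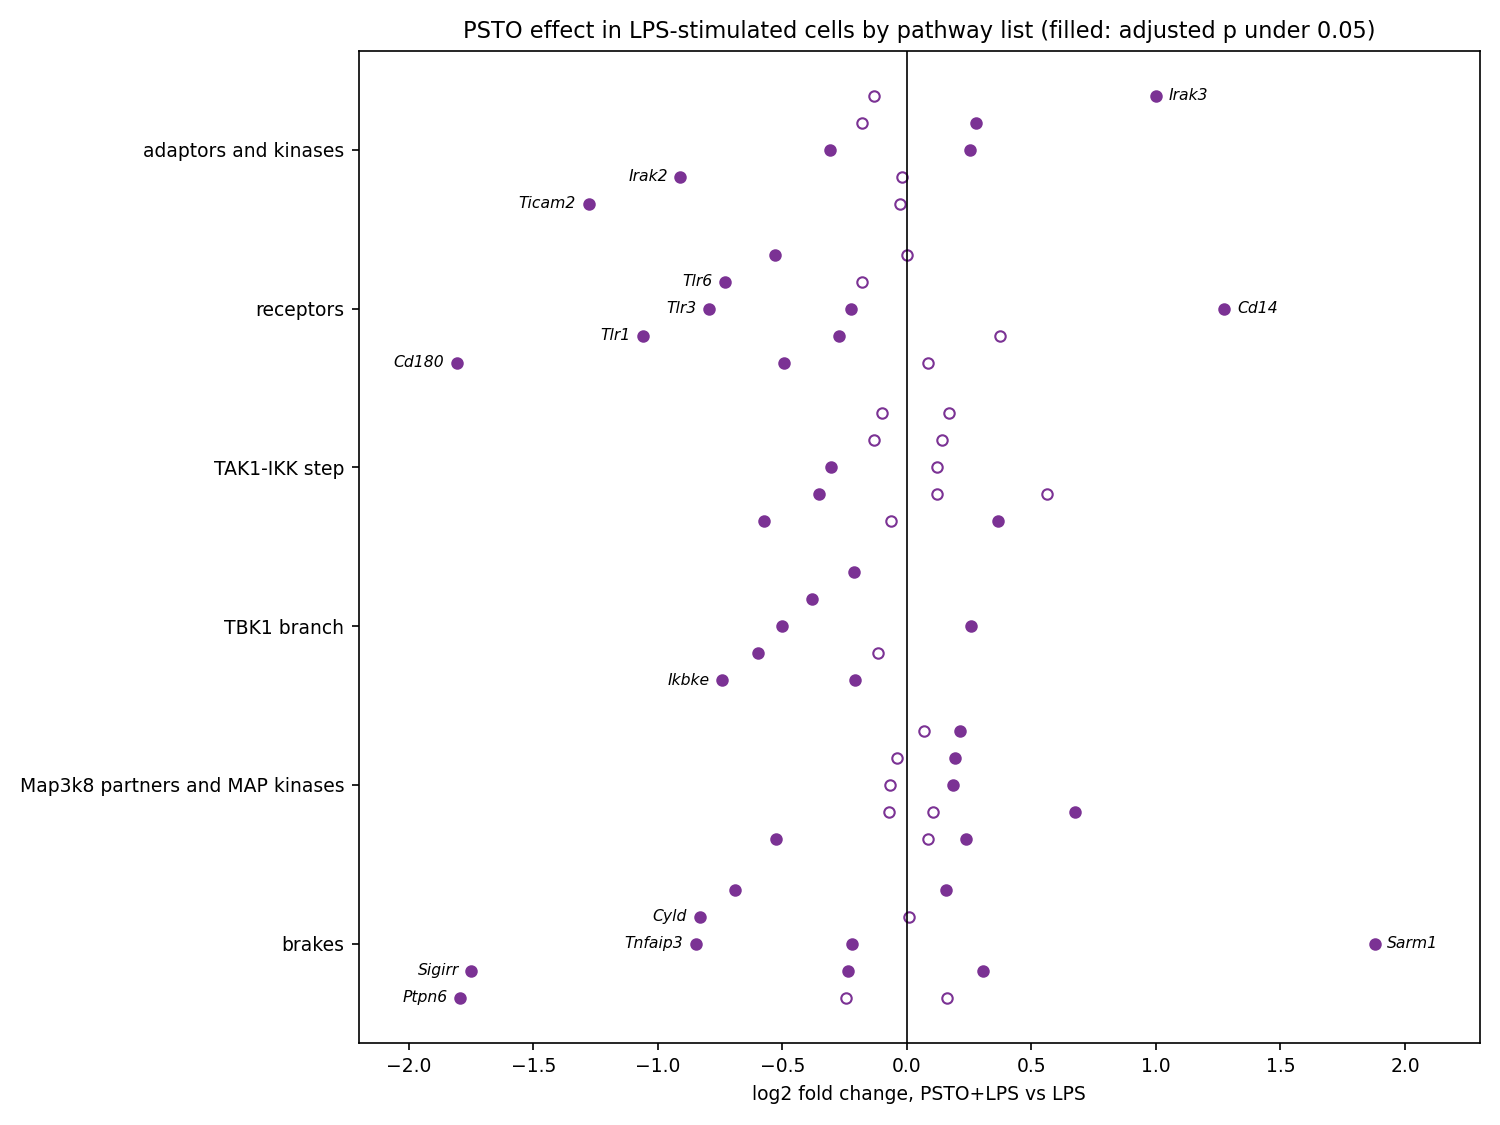
Log2 fold change of PSTO+LPS against LPS for the tested genes of each pathway list, 1 point per gene, with filled points for an edgeR adjusted p under 0.05. Of the adaptors and kinases 3 lie higher and 3 lower among the filled points, and in the TBK1 branch 6 of 8 lie lower. Of all tested genes 16.6% were called higher and 21.7% lower.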

How the data were processed

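The deposited values are whole-number read counts per gene for 12 libraries. The build mm39 and the tools HISAT and DESeq2 are named in, and credited to, the submitters' processing notes. Neither the counter and annotation release nor the strand setting or tool versions were given in the sources used here. All 12 columns matched a sample title. The 14505 genes that passed filterByExpr held at least 99.9% of each library's reads. In R 4.3.3, edgeR 4.0.16 fitted a quasi-likelihood negative binomial model to the counts with TMM scaling and 1 mean per group over all 12 libraries. Benjamini-Hochberg adjustment ran over all tested genes, and an adjusted p under 0.05 was called. Each SE was derived from the log2 fold change and its F statistic (F being the squared ratio of change to SE). CPM are counts per 1000000 reads after TMM scaling, and totals set their precision. The procedure was tested on simulated data.

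The members and the lists were chosen with earlier results of these data known. Named were all members, up to 3 called genes of each list in each comparison, by size, and the 2 genes most correlated with each member. Where a symbol had 2 entries, the one with more reads was used. Alternatives were relative log expression and upper-quartile factors, no count filter, a filter of 50 reads, DESeq2 1.42.0, limma-voom (limma 3.58.1), fits of the 2 groups compared, a replicate block, and each library left out. The lists were refitted without PSTO+LPS 1 as an alternative chosen after seeing the data. One further marker list is not reported here. Groups share replicate numbers, and same-numbered libraries did not deviate together. Reads of exons shared with a gene on the opposite strand cannot be assigned without the strand setting. The largest shares of exon bases were 11.3% for Myd88 (with Acaa1a), 9.05% for Tirap (with Gm39318) and 7.87% for Irak4 (with Twf1). Irak3 shared 5.22% with Tmbim4 and Irak2 4.44% with Gm43963.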

Additional observations from a re-analysis of the deposited data

Results flagged for a closer look

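In 5 members the LPS effect in cells given PSTO differed from the LPS effect in cells without it, by the interaction in edgeR's quasi-likelihood fit, where 17.1% of all tested genes were called. The difference on the log2 scale was -1.10 for Ticam2, -0.85 for Irak2, -0.72 for Ticam1, 0.70 for Irak3 and -0.30 for Traf6, with adjusted p-values of 0.0116, 9.4e-06, 0.00116, 0.000796 and 0.0182. The Traf6 call was lost without control 1 or 2 or any 1 of the PSTO libraries, with adjusted p-values of up to 0.147. Irak2 and Ticam2 were lower in PSTO+LPS than in LPS, while PSTO against control was not called. For Ticam1 and Traf6 PSTO was higher than control in unstimulated cells, while PSTO+LPS against LPS was not called. For Irak3 PSTO was higher in both settings, with a log2 fold change of 1.001 in stimulated and 0.30 in unstimulated cells, the second of which lost its call in 5 of 14 alternatives (adjusted p up to 0.195).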

How the results depend on the processing

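Over 50 member results and 750 alternatives, 707 kept their direction and side of the threshold, 28 lost a call, 2 gained one and 13 turned direction. The interactions of Irak2, Irak3, Ticam1 and Ticam2 kept their calls in all alternatives, with highest adjusted p-values of 9.8e-05, 0.00321, 0.00836 and 0.0445. The number of members called for PSTO against control was 5, and it was 3 with limma-voom and 3 with only the 2 groups compared. It ran between 3 and 4 when 1 library was left out, with 3 without control 3. Over all genes that comparison called 4440, with 3725 to 4916 over the alternatives and 3725 to 3926 when 1 library was left out. The turns in direction were all of values near 0 that were not called. With upper-quartile factors they were Tirap in PSTO+LPS against PSTO (-0.0044), Traf6 in PSTO+LPS against LPS (0.018) and Map3k8 in PSTO+LPS against LPS (0.0097). With only the 2 groups compared, Traf6 stood at 0.021 and Map3k8 at 0.012 in PSTO+LPS against LPS. With 1 library left out, the interaction ran from -0.14 to 0.00032 for Tirap and from -0.14 to 0.019 for Irak4. PSTO+LPS against LPS then ran from -0.057 to 0.0054 for Traf6 and from -0.076 to 0.0093 for Map3k8. The cause of these shifts was not tested.

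With the replicate number as a block, 8987 genes were called for LPS against control, 8521 for PSTO+LPS against PSTO, 4294 for PSTO against control, 5366 for PSTO+LPS against LPS and 2345 for the interaction. Without it these were 9121, 8662, 4440, 5557 and 2476. The members called with the block numbered 10, 9, 5, 6 and 5, as without it. Same-numbered libraries correlated between -0.03 and 0.05 in their deviations over 18 pairs, and 4 of 12 libraries correlated best with their own number. Depth limits Ticam2 most, with 19 to 36 reads in PSTO+LPS.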

Other observations

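Ratios of reads within a library do not depend on scaling between libraries. The ratio of Ticam1 to Ticam2 reads was 16.1, 28.7 and 28.4 in PSTO+LPS, 9.34, 10.95 and 12.9 in LPS, 2.86, 2.24 and 2.43 in PSTO, and 1.51, 1.48 and 1.57 in control. The 4 groups did not overlap, and PSTO+LPS 1 was the lowest library of its group. The ratio of Irak2 to Irak4 reads was 5.27 ± 0.99 in PSTO+LPS, 8.998 ± 0.88 in LPS, 1.75 ± 0.084 in PSTO and 1.75 ± 0.17 in control (SD, n = 3 each). The ratio of Myd88 to Tirap reads was 4.54 ± 0.52 in PSTO+LPS, 6.82 ± 0.64 in LPS, 1.63 ± 0.024 in PSTO and 2.26 ± 0.14 in control (SD, n = 3 each).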
